A study of Mus musculus with 12 samples.

Results

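The genes described here encode 7 enzymes of cholesterol synthesis: Hmgcs1, Idi1, Fdft1, Sqle, Lss, Cyp51 and Dhcr7. They were taken by name from the pathway, with earlier results of these data known, and make up 7 of the 55487 genes in the deposited table. All 7 are synthesis enzymes, and none takes up cholesterol, so genes of uptake are given separately below as a list of their own. Liver and brain were taken for RNA-seq from 6 mice, of which B, D and E are labelled WT and A, C and F are Mettl5 knockouts (KO), giving 12 libraries in 4 groups of 3. METTL5 is the methyltransferase that places m6A on the small-subunit ribosomal RNA. The KO is a whole-body deletion, made by crossing a line with a floxed Mettl5 exon to mice that express Cre from a CMV promoter, so it is not limited to liver or brain. The labels call the controls WT. The study describes the controls of its mouse RNA-seq as heterozygous in its main text, and as wild type in a title in its supplement. The labels give neither age nor sex.

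Animals make cholesterol from acetyl-CoA. The early steps build mevalonate and isoprenoid units, the middle steps join them into squalene, and the late steps close the sterol rings and convert lanosterol to cholesterol. Transcription of these enzymes is driven by SREBP-2, a membrane-bound factor that is held in the endoplasmic reticulum by INSIG proteins when sterols are plentiful and is escorted to the Golgi by SCAP and cut free when they are scarce. The liver makes cholesterol for the body, and the brain makes its own behind the blood-brain barrier, much of it for myelin.

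SREBP-2 binds short sterol regulatory elements near the start of its target genes, usually beside sites for NF-Y and Sp1. RefSeq promoter windows (build GRCm38.p6) were matched for 5 of the 7 genes, and the 250 bases before each start were searched on both strands for TCACNCCA (a core of the sterol regulatory element), CCAAT (NF-Y box) and GGGCGG (GC box). A TCACNCCA match was present in 1 gene, Hmgcs1, whose upstream sequence at chr13:119690101-119690350, plus strand, is shown because it carries that match, given in capitals.

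Hmgcs1: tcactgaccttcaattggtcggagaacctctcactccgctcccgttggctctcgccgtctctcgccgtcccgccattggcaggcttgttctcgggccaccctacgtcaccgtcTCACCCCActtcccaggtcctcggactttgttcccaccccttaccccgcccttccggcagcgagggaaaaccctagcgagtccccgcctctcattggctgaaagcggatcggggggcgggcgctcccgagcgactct

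The match lies from 137 to 130 bases before the start, and the same window held 3 CCAAT and 2 GGGCGG matches. Of 32851 windows of this length across all genes, 3.67% held TCACNCCA, 33.8% held CCAAT and 32.7% held GGGCGG. The Idi1 window held 2 CCAAT matches and 1 GGGCGG match, the Lss window 1 and 2, and the Cyp51 window 1 of each. Dhcr7 has 3 annotated starts, and its CCAAT matches, 2 in number, were all before the third. It had 1 GGGCGG match before the first start and 3 before the third. These matches are letters in a window and were not measured as binding sites.

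Sequencing depth was similar across libraries, with 14403309 to 21623180 reads counted in genes. Mettl5 itself had lower counts in KO than in WT in both organs with no overlap between the groups. Groups did not overlap, in either direction, for 13.3% of all genes tested in liver and 16.8% in brain. Mettl5 did not pass an adjusted p under 0.1 in either organ (log2 fold change -1.44, SE 0.27, adjusted p 0.383 in liver and -0.84, SE 0.27, adjusted p 0.373 in brain, edgeR). In liver its level was 4.87 ± 0.25 CPM in KO and 12.9 ± 4.96 CPM in WT (mean ± SD, n = 3), where CPM is the count scaled to library size with TMM factors over the 12 libraries. In brain it was 2.92 ± 0.28 CPM in KO and 5.37 ± 1.65 CPM in WT. Counts over the whole gene do not isolate the deleted exon. Y-linked genes had 116 to 336 counts in the libraries of mice E (WT) and F (KO) and 2183 to 3445 in those of the other 4 mice, so each genotype held 1 mouse with low Y-linked counts. The 9 hepatocyte markers summed to 83517 to 108689 CPM in liver libraries and to 89.7 to 315 CPM in brain libraries. The 6 neuron markers summed to 2223 to 2652 CPM in brain libraries and to 11.1 to 21.5 CPM in liver libraries.

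The clearest difference was between the organs. All 7 enzymes were higher in WT liver than in WT brain, by 2.25 (Fdft1) to 3.25 (Dhcr7) on the log2 scale, and all 7 passed an adjusted p under 0.1 in edgeR's quasi-likelihood test over 17694 genes. That threshold was passed by 78.3% of all genes tested, and by 35.4% in the direction of higher in liver, so passing it is common in this comparison. The median log2 difference was 2.58 for the 7 enzymes and -0.16 for all genes tested. The lowest liver library lay above the highest brain library for each of the 7, over both genotypes, by 3.38-fold for Sqle to 6.30-fold for Dhcr7. Bulk tissue cannot tell fewer cells of a type from less RNA per cell, and liver is mostly hepatocytes whereas brain is a mixture.

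**Figure D1:**
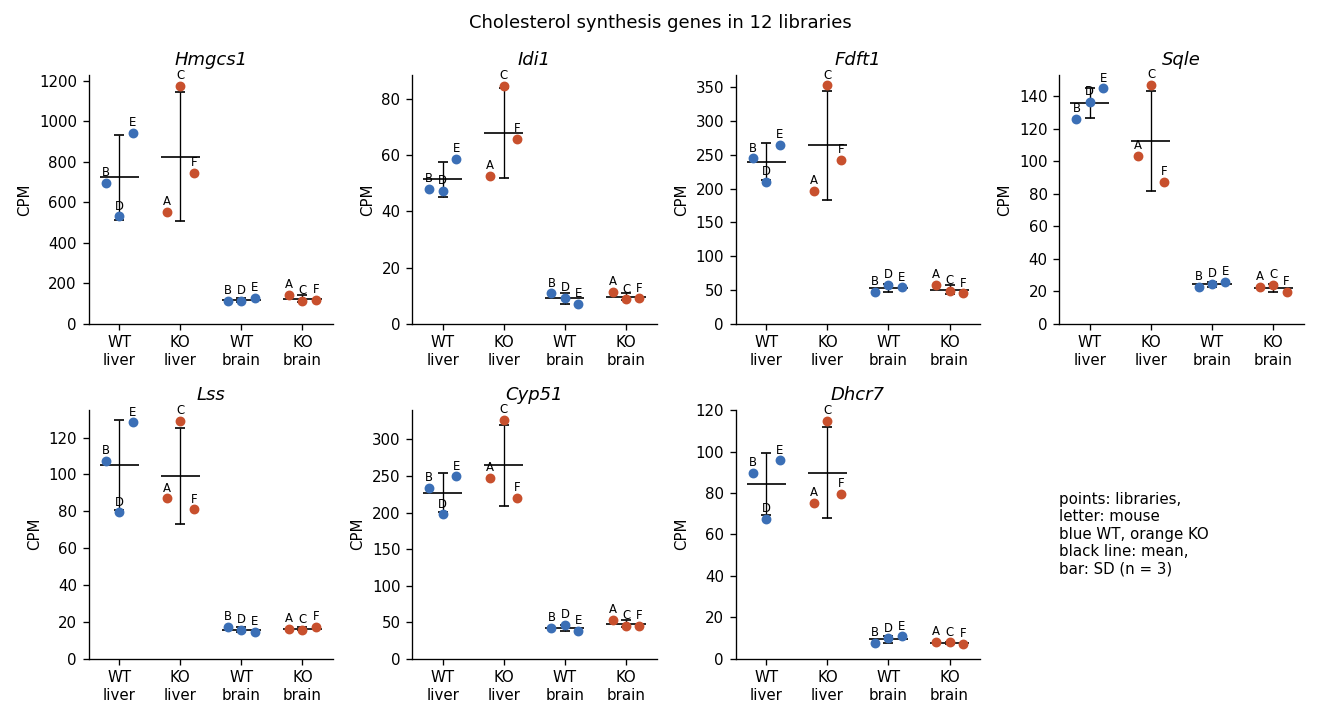
CPM of each of the 7 enzymes in the 12 libraries, with one point per mouse (letter), the mean as a black line and the SD as a bar (n = 3 per group). In every panel the liver points sit above the brain points, the WT and KO points of an organ overlap, and mouse C (KO) is the highest liver point.

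Hmgcs1, the cytosolic synthase that makes HMG-CoA, acts at the start of the pathway and had the highest level of the 7 per kilobase of exon. In liver it stood at 694, 529 and 943 CPM in WT mice B, D and E, and at 551, 1175 and 746 CPM in KO mice A, C and F. In brain it stood at 113, 112 and 128 CPM in WT and at 142, 111 and 117 CPM in KO, in the same order of mice. The liver values spread 2.22-fold from lowest to highest and the genotypes were interleaved, whereas the brain values spread 1.27-fold. WT liver exceeded WT brain by 2.69 on the log2 scale (SE 0.24, adjusted p 2.25e-06, edgeR).

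Idi1, the isomerase that interconverts the isoprenoid building blocks, had liver values of 48.1, 47.3 and 58.7 CPM in WT and 52.7, 84.7 and 65.9 CPM in KO. KO mice C and F lay above every WT mouse, and KO mouse A lay inside the WT range. Its brain values were 10.8, 9.15 and 7.09 CPM in WT and 11.2, 8.70 and 9.08 CPM in KO, which overlap. The organ difference was 2.58 on the log2 scale (SE 0.20, adjusted p 7.42e-07, edgeR).

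Fdft1, squalene synthase, commits the pathway to sterols. Its liver values were 245, 211 and 265 CPM in WT and 197, 353 and 243 CPM in KO, so the KO mice held both the lowest and the highest value. Its brain values were 47.2, 57.8 and 53.9 CPM in WT and 57.9, 48.4 and 44.9 CPM in KO. The organ difference, 2.25 on the log2 scale (SE 0.17, adjusted p 4.79e-07, edgeR), was the smallest of the 7.

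Sqle, squalene epoxidase, introduces the oxygen that ring closure needs and is a further control point of the pathway. In liver it stood at 126, 136 and 145 CPM in WT and at 103, 147 and 87.4 CPM in KO. Here KO mice A and F lay below every WT mouse, and KO mouse C lay just above them. In brain it stood at 22.8, 24.4 and 25.9 CPM in WT and at 22.6, 23.8 and 19.6 CPM in KO. The organ difference was 2.55 on the log2 scale (SE 0.15, adjusted p 1.03e-07, edgeR).

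Lss, lanosterol synthase, closes the rings. Its liver values were 107, 79.5 and 128 CPM in WT and 87.0, 129 and 81.1 CPM in KO, with nearly the same range in both genotypes. Its brain values were 17.1, 15.5 and 14.5 CPM in WT and 16.3, 15.5 and 17.2 CPM in KO, the narrowest spread of the 7 in that organ at 1.19-fold. The organ difference was 2.81 on the log2 scale (SE 0.20, adjusted p 4.47e-07, edgeR).

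Cyp51, the cytochrome P450 that demethylates lanosterol, stood in liver at 233, 197 and 250 CPM in WT and at 247, 327 and 220 CPM in KO. In brain it stood at 42.1, 46.2 and 38.3 CPM in WT and at 52.9, 44.5 and 45.1 CPM in KO. The genotypes overlapped in both organs, and the organ difference was 2.50 on the log2 scale (SE 0.17, adjusted p 2.27e-07, edgeR).

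Dhcr7, the reductase that makes cholesterol from 7-dehydrocholesterol, had the largest organ difference of the 7, 3.25 on the log2 scale (SE 0.20, adjusted p 1.27e-07, edgeR). Its liver values were 89.8, 67.4 and 95.8 CPM in WT and 75.2, 115 and 79.6 CPM in KO. Its brain values were 7.57, 9.69 and 10.7 CPM in WT and 7.94, 7.85 and 7.20 CPM in KO, where WT mouse B kept the groups from separating. The ratio of mean CPM in liver to that in brain was 9.05 in WT and 11.7 in KO.

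**Figure D2:**
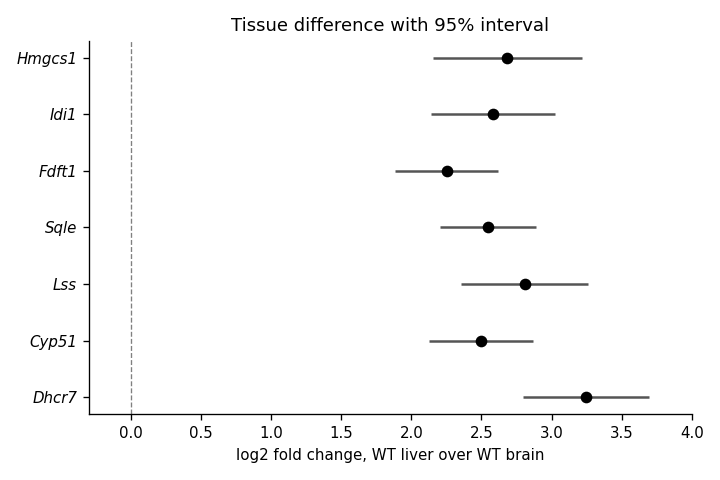
Log2 fold change of WT liver over WT brain for the 7 enzymes (points) with 95% intervals (lines), from 3 libraries per organ. All 7 intervals lie above 0, from Fdft1 at 2.25 to Dhcr7 at 3.25.

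Compared per kilobase of annotated exon, which allows levels of different genes to be set side by side, the order in WT liver was Hmgcs1 (157 ± 45.3 CPM per kb, SD, n = 3), Fdft1 (58.3 ± 6.68), Cyp51 (51.4 ± 6.05), Sqle (24.5 ± 1.69), Idi1 (14.7 ± 1.82), Dhcr7 (14.5 ± 2.57) and Lss (9.74 ± 2.27). Fdft1 and Cyp51 overlapped in range, as did Idi1 with Dhcr7 and Dhcr7 with Lss, whereas Hmgcs1 stood above the rest in each WT library. In WT brain Hmgcs1 again came first (25.6 ± 1.97 CPM per kb), with Fdft1 (12.9 ± 1.30) and Cyp51 (9.56 ± 0.90) next and Lss (1.46 ± 0.12) and Dhcr7 (1.60 ± 0.27) lowest, the range of Lss lying inside that of Dhcr7. The annotated exons of Lss add up to 10787 bases, more than for the other 6 genes, which lowers its value per kb.

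Whether loss of METTL5 changed these enzymes in liver was asked over the 6 liver libraries. None of the 7 passed an adjusted p under 0.1, and neither did any other gene of 14075 tested (0%). At an unadjusted p under 0.05 the count was 0 of 7, against 1032 genes or 7.33% of all tested, and DESeq2 also called 0 of the 7 at an adjusted p under 0.1 (171 genes in all). No enzyme had non-overlapping groups, against 13.3% of all genes. The estimates were above 0 for 5 and below 0 for 2, with a median of 0.10 on the log2 scale beside -0.0024 for all genes. That median was -0.16 without KO mouse C, -0.019 without WT mouse D and 0.24 without KO mouse A, so its sign and size rested on single mice.

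The largest estimates pointed in opposite directions. Idi1 was 0.36 on the log2 scale (95% interval -0.050 to 0.78, adjusted p 0.738, edgeR) and Sqle was -0.31 (-0.74 to 0.12, adjusted p 0.794). Hmgcs1 had the widest interval, from -0.56 to 0.87 around 0.15, and changes of that size in either direction were not resolved with 3 mice per genotype. Cyp51 was 0.19 (-0.21 to 0.58), Fdft1 0.10 (-0.38 to 0.58), Dhcr7 0.057 (-0.39 to 0.50) and Lss -0.12 (-0.63 to 0.39). Without KO mouse C, 2 estimates were above 0 and 5 below, and Hmgcs1, Fdft1 and Dhcr7 became -0.19, -0.16 and -0.16. Without WT mouse D, 3 were above 0 and 4 below, and Hmgcs1 became -0.019 and Dhcr7 -0.073. Lss became 0.054 without WT mouse E and 0.0037 without KO mouse F. Idi1 and Sqle kept their signs, at 0.18 and -0.54 without KO mouse C, while Idi1 was 0.52 without KO mouse A, Sqle was -0.16 without KO mouse F and Cyp51 was 0.010 without KO mouse C.

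**Figure D3:**
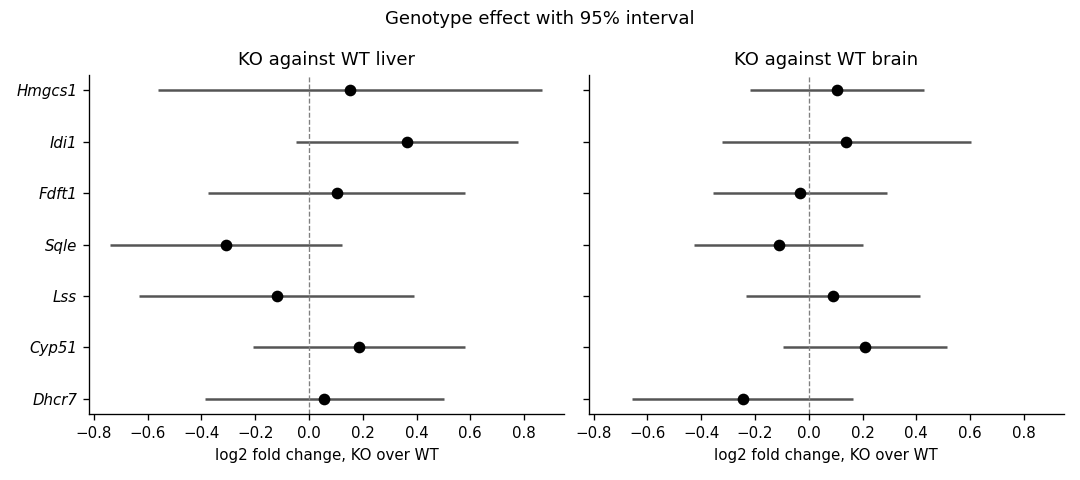
Log2 fold change of KO over WT for the 7 enzymes (points) with 95% intervals (lines), in liver (left) and brain (right), from 3 mice per genotype. Every interval includes 0; in liver the estimates run from -0.31 (Sqle) to 0.36 (Idi1).

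In brain, 0 of the 7 passed an adjusted p under 0.1, against 11 of 17188 genes (0.064%), and 0 of 7 had an unadjusted p under 0.05, against 11% of all genes. DESeq2 called 0 of the 7 among 269 genes. None had non-overlapping groups, against 16.8% of all genes. The estimates were 0.21 for Cyp51 (95% interval -0.097 to 0.51, adjusted p 0.569, edgeR), 0.14 for Idi1, 0.10 for Hmgcs1 and 0.091 for Lss, and -0.032 for Fdft1, -0.11 for Sqle and -0.25 for Dhcr7 (-0.66 to 0.16, adjusted p 0.609). Their median was 0.091, beside -0.0016 for all genes. Single mice moved these values: without WT mouse E, Idi1 was 0.00034, Lss 0.044, Sqle -0.057, Dhcr7 -0.12 and the median 0.00034. Without KO mouse A, Idi1 was 0.013, Hmgcs1 -0.016, Cyp51 0.12 and the median -0.016. Idi1 was 0.31 and Lss 0.17 without WT mouse B, and Sqle was -0.031 without KO mouse F. With library totals alone as scaling, all 7 were below 0 and the median of all genes moved to -0.23, so that the 7 enzymes lay 0.095 above it, close to the 0.092 under TMM.

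The brain libraries differed in makeup between genotypes. Cerebellum markers (8 of 8 detected in both groups) summed to 53.6 to 405 CPM in KO and 637 to 1138 CPM in WT, and olfactory bulb markers (10 of 10) to 41.9 to 63.8 CPM in KO and 6.86 to 15.5 CPM in WT. Choroid plexus markers (5 of 5) summed to 12.6 to 16.8 CPM in KO and 21.3 to 35.7 CPM in WT. The summed markers of the glia that make much of the brain's cholesterol overlapped between genotypes, with oligodendrocyte markers (8 of 8) at 1887 to 2329 CPM in KO and 2063 to 2617 CPM in WT, and astrocyte markers (7 of 7) at 2566 to 3522 and 2711 to 3636 CPM. Gene by gene, 6 of 8 oligodendrocyte markers were below 0 (median -0.15 on the log2 scale, 0 with an unadjusted p under 0.05). Of 7 astrocyte markers, 6 were below 0 (median -0.30) and 2 had an unadjusted p under 0.05, against 11% of all genes. Of the astrocyte markers 1, Gja1, had groups that did not overlap, against 16.8% of all genes. The part of these differences in the brain estimates was not tested. Mitochondrial rRNA took 21.4% to 31.6% of counts in KO brain and 7.63% to 17.7% in WT brain, and in liver 7.36% to 8.66% in KO and 10.7% to 16.9% in WT. With mitochondrial genes left out, no enzyme was called in either organ.

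The difference between the liver and the brain effect was tested in a single fit over the 12 libraries. It called 0 of the 7 enzymes and 0 of 18944 genes (0%) at an adjusted p under 0.1, and 0 of 7 at an unadjusted p under 0.05, against 10.6% of all genes. DESeq2 called 0 of the 7 among 369 genes. The differences ran from -0.18 (Lss, 95% interval -0.78 to 0.42) to 0.33 (Dhcr7, -0.25 to 0.92, adjusted p 0.683, edgeR). Their median was 0.081, and it became -0.20 without KO mouse C and 0.43 without KO mouse A. The sign of Lss also rested on single mice.

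The largest variation of these enzymes within an organ was between mice in liver, and it was shared among them. KO mouse C was the highest of the 6 liver libraries for all 7 genes, and WT mouse D was the lowest for 5. WT mouse E lay above the liver mean for all 7. Summed over the 7, liver libraries ran from 1268 CPM in mouse D to 2330 CPM in mouse C, a 1.84-fold range, and brain libraries from 260 to 311 CPM, a 1.20-fold range. Within each genotype the liver sums were 1543, 1268 and 1885 CPM in WT mice B, D and E and 1313, 2330 and 1523 CPM in KO mice A, C and F.

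**Figure D4:**
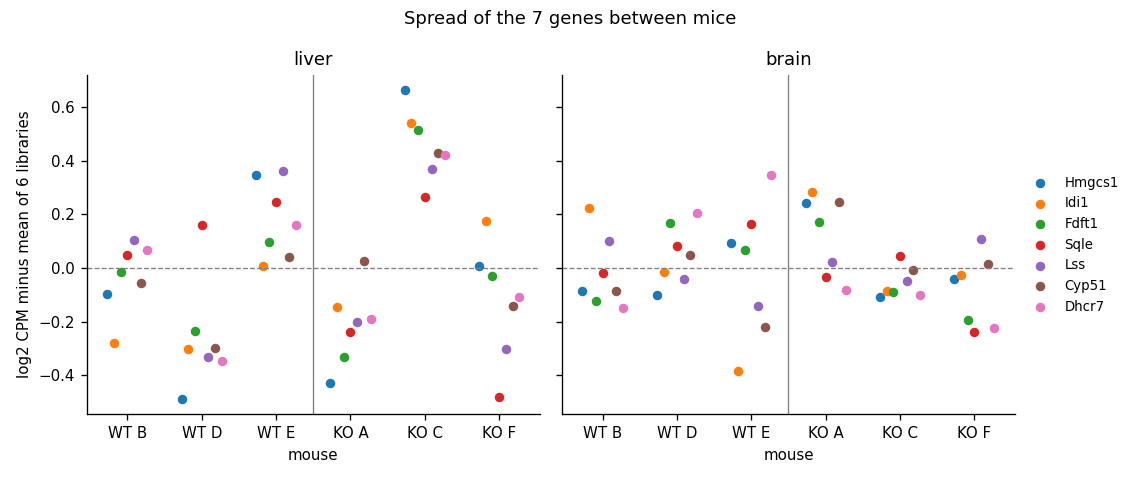
Log2 CPM of each enzyme minus its mean over the 6 libraries of an organ, by mouse, in liver (left) and brain (right), with colours for genes. In liver the 7 genes of mouse C (KO) all lie above 0 and mouse D (WT) has 5 of its genes as the lowest of 6, and in brain the genes of a mouse scatter to both sides of 0.

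Across the 6 liver libraries the 21 pairs of enzymes had a median Pearson correlation of 0.79 (0.071 to 0.96), and 10 pairs exceeded 0.8. Among all pairs of the 8113 genes with a mean of at least 10 CPM or among the 7 the median was 0.052 and 5.39% exceeded 0.8. In brain the median of the 21 pairs was 0.15 (-0.87 to 0.83) and 1 pair exceeded 0.8, against 10.7% of all pairs. Sqle was the least like the others in liver, with a median correlation of 0.45 to the other 6, and Dhcr7 the most, at 0.90. These are descriptions over 6 libraries that share a mouse and a depth for every gene. In liver they include KO mouse C, the highest library for all 7 enzymes, and no values without that mouse are given. The SD of log2 CPM over the liver libraries was 0.44 for Hmgcs1 and 0.24 to 0.32 for the other 6, beside a median of 0.20 over all genes. In brain it was 0.095 (Lss) to 0.24 (Idi1), beside 0.21.

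The genes whose liver levels followed the mean of the 7 enzymes most closely were Armc5 (Pearson r 0.99), Dmgdh (0.99), Abhd11 (0.98), Mrs2 (0.97) and Agxt2 (0.97), out of 8106 genes over 6 libraries. Without the 2 libraries farthest from the median these were 0.93, 0.90, 0.99, 0.80 and 0.81. In brain they were Prkcq (0.99), Pomp (0.98), Stip1 (0.98), Ubxn6 (0.97) and Pole4 (0.97), out of 8671 genes. Of 14 other enzymes of sterol synthesis, Mvk, Msmo1, Nsdhl and Hsd17b7 were among the 100 genes most like the 7 in liver, and the median correlation of the 14 was 0.72, beside 0.042 for all genes. In brain 6 of the 14 reached the minimum level, none was among the 100, and their median was 0.27.

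Of the 14 other sterol synthesis enzymes, 14 were called higher in WT liver than in WT brain, with a median log2 difference of 2.89. The 5 with the smallest p were Sc5d (4.46), Tm7sf2 (3.96), Nsdhl (3.77), Hsd17b7 (3.18) and Ebp (4.30), which act on the sterol rings after lanosterol. Between genotypes 0 of the 14 were called in liver, with 7 above and 7 below 0 and a median of 0.039. In brain 0 were called, with 4 above and 10 below 0, a median of -0.12 and 5 with groups that did not overlap (4 lower, 1 higher, against 16.8% of all genes in either direction), and Ebp, a sterol isomerase, had an unadjusted p under 0.05 (-0.75, SE 0.24, adjusted p 0.367, edgeR). For the difference between the liver and the brain effect 0 of the 14 were called, and Ebp (0.70, adjusted p 0.403), Lbr (0.58, adjusted p 0.443) and Pmvk (0.51, adjusted p 0.459, edgeR) had an unadjusted p under 0.05, as had 10.6% of all genes.

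Of 6 regulators of SREBP-2, Insig1 (4.20), Scap (2.005), Insig2 (3.07) and Mbtps1 (0.41) were called higher in WT liver, and Mbtps2 was called lower (-0.80). Insig1 and Insig2 encode the sterol-dependent anchors, Scap the escort, and Mbtps1 and Mbtps2 the proteases that free the factor. Srebf2, which encodes SREBP-2, was not called between organs (-0.096, adjusted p 0.662, edgeR). Between genotypes 0 of the 6 were called in liver, with 4 above and 2 below 0, a median of 0.17 and 0 with an unadjusted p under 0.05. The estimates ran from -0.48 to 0.30. The 2 below 0 were Insig1 (mean 419 CPM in KO and 570 CPM in WT) and Insig2 (152 and 178 CPM). The liver groups of Mbtps1 (97.2 to 108 CPM in KO, 86.3 to 92.1 CPM in WT) and Scap (158 to 180 and 115 to 152 CPM) did not overlap, against 13.3% of all genes. In brain 0 were called, with 1 above and 5 below 0, and Mbtps1 had an unadjusted p under 0.05 (-0.30, adjusted p 0.450, edgeR), as had 11% of all genes. For the difference between the liver and the brain effect 0 were called, and Mbtps1 (0.48, adjusted p 0.368) and Scap (0.69, adjusted p 0.392, edgeR) had an unadjusted p under 0.05, against 10.6% of all genes.

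Of 11 genes of cholesterol uptake and trafficking, 10 were tested between WT organs and 10 were called higher in liver. Among those with the smallest p were Lipa (4.89), the lysosomal acid lipase, Scarb1 (4.22), the HDL receptor, and Stard4 (2.73), a sterol carrier. Between genotypes in liver 0 of 10 were called, with 5 above and 5 below 0 and a median of 0.018. An unadjusted p under 0.05 was found for 3, against 7.33% of all genes: Scarb1 (0.47, adjusted p 0.467), Npc1, which exports cholesterol from lysosomes (0.31, adjusted p 0.665), and Lrp1, a lipoprotein receptor (0.35, adjusted p 0.678, edgeR). The groups of these 3 did not overlap and were higher in KO, against 13.3% of all genes in either direction. Summed over the list, liver levels were 3017 to 3661 CPM in KO and 2574 to 2993 CPM in WT, of which Lrp1 averaged 2261 and 1736 CPM. In brain 0 of 11 were called, with a median of -0.10, and those with an unadjusted p under 0.05 included Mylip, a ubiquitin ligase (-0.62, adjusted p 0.320, edgeR), where 11% of all genes passed that threshold. For the difference between the effects 0 of 11 were called, but Npc1l1 was too low in liver for an effect to be measured there. Those with an unadjusted p under 0.05, against 10.6% of all genes, included Mylip (0.87, adjusted p 0.279) and Npc1 (0.68, adjusted p 0.454, edgeR).

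Of 11 genes of cholesterol efflux, esterification and turnover, 7 were called higher and 3 lower in WT liver than in WT brain. Abcg5, Abcg8, Soat2 and Cyp7a1, which are 4 of the 7 called higher, did not pass the filter on low counts in the brain comparison and entered this one through liver, so no fold is given for them: Soat2 had 2 reads in each WT brain library and 285 to 555 in WT liver, and Abcg8 had 0 to 2 and 863 to 1140. Of the 5 with the smallest p the other 3 were Cyp27a1 (6.50), Nr1h3 (4.78) and Abca1 (3.25), all higher in liver. Between genotypes 0 of 11 were called in liver, with 9 above and 2 below 0 and a median of 0.15. The groups of 2 did not overlap, Abcg1 and Abcg8, both higher in KO, against 13.3% of all genes in either direction, and Abcg8, a subunit of the sterol transporter into bile, had an unadjusted p under 0.05 (0.49, adjusted p 0.620, edgeR), as had 7.33% of all genes. In brain 0 of 7 were called, with 1 above and 6 below 0 and a median of -0.28, and Cyp27a1, a sterol hydroxylase, had an unadjusted p under 0.05 (-0.69, adjusted p 0.442, edgeR), as had 11% of all genes. For the difference between the effects 0 of 11 were called, but Abcg5, Abcg8, Soat2 and Cyp7a1 were too low in brain for an effect to be measured there. Cyp27a1 (1.01, adjusted p 0.267) and Abcg1 (0.74, adjusted p 0.376, edgeR) had an unadjusted p under 0.05, against 10.6% of all genes.

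Fatty acid synthesis, the neighbouring pathway driven by SREBP-1, draws on the same acetyl-CoA. Of its 15 genes in liver, 15 estimates were below 0 in KO, with a median of -0.90, 11 had an unadjusted p under 0.05 and 8 had non-overlapping groups, and 0 were called at an adjusted p under 0.1. Lower in KO by these measures were 4.57% and 4.94% of all genes tested. Summed over the list, the levels were 14190, 17886 and 10891 CPM in KO mice A, C and F. In WT mice B, D and E they were 36070, 23130 and 17910 CPM. KO mouse C and WT mouse E nearly met, and WT mouse B stood highest. These sums are mostly Scd1, which averaged 9787 of 14323 CPM in KO and 17888 of 25703 CPM in WT. In the same libraries 6 of 6 Kupffer cell markers were below 0 (median -0.56, 1 with an unadjusted p under 0.05, summed 159 to 317 CPM in KO and 228 to 380 CPM in WT), and so were 10 of 14 circadian clock genes (median -0.50). Of the clock genes 4 below 0 (Per2, Hlf, Cry2 and Dbp) and 1 of the 4 above 0 (Arntl, 0.51) had an unadjusted p under 0.05. Their part in the fatty acid values was not tested. Acly, which makes the acetyl-CoA that both pathways use, was -0.93 (SE 0.21, adjusted p 0.400, edgeR), and Fasn, fatty acid synthase, was -1.27 (SE 0.30, adjusted p 0.428). The 7 sterol enzymes in the same 6 libraries had a median of 0.10, or -0.16 without KO mouse C and -0.019 without WT mouse D. Whether the lists differ was not tested.

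**Figure D5:**
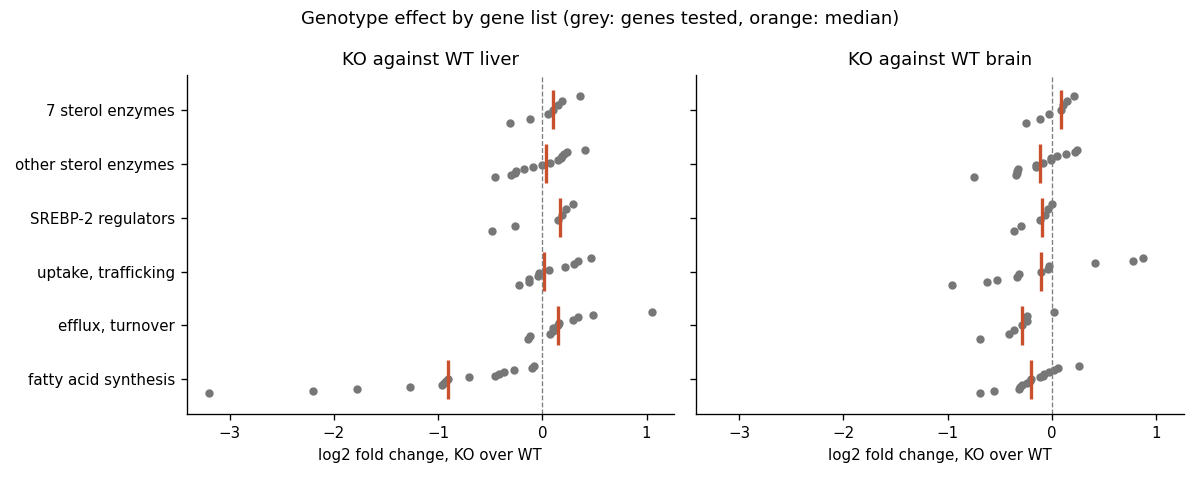
Log2 fold change of KO over WT for each tested gene (grey points) of 6 lists, with the list median (orange line), in liver (left) and brain (right). The 7 sterol enzymes have medians of 0.10 and 0.091, and the 15 fatty acid synthesis genes in liver all lie below 0 with a median of -0.90.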

How the data were processed

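Total RNA libraries from liver and brain were made with a stranded kit and sequenced by the authors. Per the labels, reads were trimmed with Trimmomatic, aligned to mm10 with STAR 2.7.3a and counted with featureCounts, per the file header by strand. The deposited values are raw counts per gene, from one table of 55487 genes, of which 55141 matched a symbol. Groups came from the labels. Genes on the opposite strand overlap 5 of the 7 enzymes.

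Each comparison was fitted to the counts with edgeR 4.0.16 (TMM, filterByExpr, robust quasi-likelihood F test, Benjamini-Hochberg over all genes tested, call at an adjusted p under 0.1), in R 4.3.3. Genotypes were compared within each organ over 6 libraries, their difference over 12, and organs over the 6 WT libraries. DESeq2 1.42.0, other scalings, no filter on low counts, a covariate for Y-linked transcripts (1000 or more counts), mouse as a block, and leaving out each mouse were alternatives. The fits were tested on simulated data. Levels are CPM with TMM over 12 libraries; correlations used log2 CPM with a prior count of 2 and genes with a mean of at least 10 CPM.

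Named genes are the 7 enzymes, the called genes of the lists for sterol synthesis, SREBP-2 regulation, uptake and trafficking, and efflux and turnover (or, with none called, those with an unadjusted p under 0.05), at most 5 per list and comparison by p (some genes of uptake and trafficking that this rule names are not reported here), and the 5 genes per organ most like the 7; Fasn, Acly, Srebf2, Gja1, the 5 clock genes and the 4 sterol enzymes in the likeness lists were named after their values were seen. The enzymes and lists were chosen with earlier results of these data known. Liver and brain of a mouse come from the same animal, which pairs the organs; their deviations from the group means correlated by -0.039 to 0.14 over 12574 genes. Replicates are separate mice, with correlations of 0.963 to 0.982 within groups.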

Additional observations from a re-analysis of the deposited data

How the results depend on the processing

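Over the alternatives run, no enzyme was called between genotypes in liver (smallest adjusted p 0.432), in brain (0.262) or for the difference (0.284), and all 7 were called between organs in each. With library totals alone, the median of the 7 became -0.13 in brain, 0.36 for the difference and 1.76 between organs, where all genes had medians of -0.23, 0.32 and -0.99. Under that scaling the brain values of Hmgcs1, Idi1, Lss and Cyp51 were -0.13, -0.093, -0.13 and -0.027, and the differences for Sqle and Lss were 0.11 and 0.086. The difference for Cyp51 was -0.0090 with RLE scaling, -0.0019 with DESeq2 and -0.00090 with mouse as a replicate block. The replicate block left 0 enzymes called for the difference, where it called 68 genes in all, and 7 called between organs, the comparisons it was run for, so it changed no call on the enzymes. The study speaks of KO and control pairs, and no label gives the partner of a mouse, so the genotypes were not fitted as pairs.

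Leaving out 1 mouse at a time gave liver values of -0.19 to 0.40 for Hmgcs1, -0.16 to 0.28 for Fdft1, -0.16 to 0.17 for Dhcr7, -0.35 to 0.054 for Lss, 0.18 to 0.52 for Idi1, -0.54 to -0.16 for Sqle, 0.010 to 0.30 for Cyp51 and -0.16 to 0.24 for the median. In brain it gave -0.016 to 0.18 for Hmgcs1, -0.15 to 0.048 for Fdft1, 0.00034 to 0.31 for Idi1, -0.17 to -0.031 for Sqle, 0.044 to 0.17 for Lss, 0.12 to 0.26 for Cyp51, -0.36 to -0.12 for Dhcr7 and -0.016 to 0.13 for the median. For the difference it gave -0.32 to 0.43 for Hmgcs1, -0.12 to 0.46 for Fdft1, -0.20 to 0.15 for Cyp51, -0.44 to 0.047 for Lss, 0.0044 to 0.54 for Idi1, -0.33 to -0.079 for Sqle, 0.15 to 0.51 for Dhcr7 and -0.20 to 0.43 for the median. The cause of these shifts was not tested.

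Over all genes, the count called in liver was 0, but 443 with no filter, 171 with DESeq2, 82 with the Y-linked covariate, 3 with all 12 libraries in one fit, 87 without WT mouse D and 2 without KO mouse C. In brain it was 11, but 1000 with no filter, 269 with DESeq2, 4 with library totals alone and 2 to 23 without 1 mouse. For the difference it was 0, but 183 with no filter, 369 with DESeq2, 68 with the replicate block, 86 without WT mouse D, and 1 each with RLE scaling, with mitochondrial genes left out and without KO mouse F. With 3 mice per genotype, the intervals of the 7 enzymes limit what could be seen.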
